A study of Homo sapiens with 28 samples.

Results

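The genes described here are 10 neuronal microtubule genes measured in neuroblastoma cells given microRNA mimics. They are the doublecortin family genes DCX and DCLK1, the structural microtubule-associated protein genes MAPT, MAP2 and MAP1B, the stathmins STMN1, STMN2, STMN3 and STMN4, and the beta tubulin gene TUBB3. They were taken by symbol from the 30887 rows of the expression table, and TUBB3, whose symbol stands on a pair of rows, was read from the row with the higher mean count. All 10 passed the filter on low counts, which left 15058 genes for testing.

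Kelly cells, an established human neuroblastoma line with amplified MYCN, were reverse transfected with 25 nM of a synthetic RNA and harvested after 48 h for stranded, poly(A)-selected RNA sequencing. The 28 libraries form 7 groups of 4: the mimic of miR-99b-5p, that of miR-380-3p, that of miR-485-3p, that of miR-100-3p, that of miR-1915-3p, that of miR-1283, and a scrambled control that went through the same transfection. A mimic is a synthetic RNA that the cell loads into Argonaute like its own microRNA, so a group shows added microRNA at the given dose in 1 cell line. Whether the 4 libraries of each group are separate cultures is not stated in the labels, and the p-values describe the spread among these libraries alone.

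Sequencing depth lay between 10.99 M and 23.3 M expected counts a library. All 10 adrenergic neuroblastoma markers looked up were present in every library, MYCN with a median of 4253 counts per M of library size (CPM). SOX10 and S100B, markers of Schwann cells, and COL1A2, a fibroblast collagen, were each at 0 in 27 of 28 libraries. The summed level of the 10 adrenergic markers ran from 5833 to 7180 CPM in miR-99b-5p libraries, from 6877 to 7855 CPM in miR-380-3p libraries, from 6446 to 8338 CPM in miR-485-3p libraries and from 7126 to 8030 CPM in miR-1915-3p libraries, all below the 8776 to 9480 CPM of the control libraries. It ran from 9265 to 10840 CPM in miR-100-3p libraries and from 7723 to 9936 CPM in miR-1283 libraries; its part in the results below was not tested. The GC slope, which says how far the GC-rich transcripts of a library stand above or below the mean of all libraries, lay beyond 2 in size in 3 libraries: miR-99b-5p replicate 2 at -2.31, miR-485-3p replicate 2 at 3.24 and miR-1283 replicate 4 at 2.08. In bulk RNA, fewer cells with a transcript and less of it in each cell cannot be told apart.

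Microtubules are polymers of alpha and beta tubulin, and growing neurites depend on the balance between proteins that hold the polymer together and proteins that take it apart. Doublecortin, its relative doublecortin-like kinase, tau (MAPT), MAP2 and MAP1B bind along the polymer and stabilise or bundle it. Stathmins bind free tubulin dimers and favour disassembly until they are phosphorylated, STMN1 in the cytosol of dividing and neural cells and STMN2, STMN3 and STMN4 on membranes of neurons.

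The mature sequences of the 6 mimicked microRNAs are shown because positions 2 to 8, the seed (in capitals), choose most target sites. The sequences are RefSeq's (GRCh38.p14), written 5′ to 3′, and no seed is shared between them.
miR-99b-5p: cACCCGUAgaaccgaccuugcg
miR-380-3p: uAUGUAAUaugguccacaucuu
miR-485-3p: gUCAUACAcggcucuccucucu
miR-100-3p: cAAGCUUGuaucuauagguaug
miR-1915-3p: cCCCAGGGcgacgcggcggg
miR-1283: uCUACAAAggaaagcgcuuucu

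The longest annotated 3′ UTR of each member (GENCODE v29 on GRCh38, another build than the hg19 used for the counts) was searched on the transcribed strand for heptamers complementary to each seed. The 6 heptamers were TACGGGT for miR-99b-5p, ATTACAT for miR-380-3p, TGTATGA for miR-485-3p, CAAGCTT for miR-100-3p, CCCTGGG for miR-1915-3p and TTTGTAG for miR-1283. A total of 16 heptamers lay in 7 members, and STMN1, STMN4 and TUBB3 had none. Among members with sites, this UTR was longer than the deposited transcript length in MAPT (4163 against 2303 bases) and DCLK1 (5990 against 5007 bases). The counted transcripts of these genes may thus lack some of the sites, which was not tested. No member had the miR-99b-5p heptamer, which 1.26% of tested genes with a UTR carried. The miR-380-3p heptamer, carried by 15% of tested genes, lay in DCX, MAP2 and MAP1B. The miR-485-3p heptamer, carried by 14.3%, lay in DCLK1 and STMN2. The shares were 10.5% for miR-100-3p (DCX), 23.1% for miR-1915-3p (MAPT, STMN3) and 20.8% for miR-1283 (DCX, DCLK1).

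The sites shown are those of miR-380-3p, under which DCX, a carrier, was higher, the DCLK1 site of miR-485-3p, and 1 of the miR-1915-3p sites of MAPT, the member with the most sites for that mimic. Each is written 5′ to 3′ on the gene's own strand with the heptamer in capitals and up to 10 bases on each side.
DCX chrX:111300861-111300887, minus strand, miR-380-3p: ataccacatgATTACATgaactgtatg
DCX chrX:111294449-111294475, minus strand, miR-380-3p: tggccatttgATTACATttcaggattg
MAP2 chr2:209732570-209732596, plus strand, miR-380-3p: agggtattttATTACATgttttcatag
MAP1B chr5:72207239-72207265, plus strand, miR-380-3p: gctctgtcacATTACATttcctgcaga
MAP1B chr5:72207451-72207477, plus strand, miR-380-3p: aatgctgtgaATTACATttttcaaatg
DCLK1 chr13:35768972-35768998, minus strand, miR-485-3p: tagtacttggTGTATGAactactacat
MAPT chr17:46028064-46028090, plus strand, miR-1915-3p: aaaagggttaCCCTGGGcactggccta

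**Figure D1:**
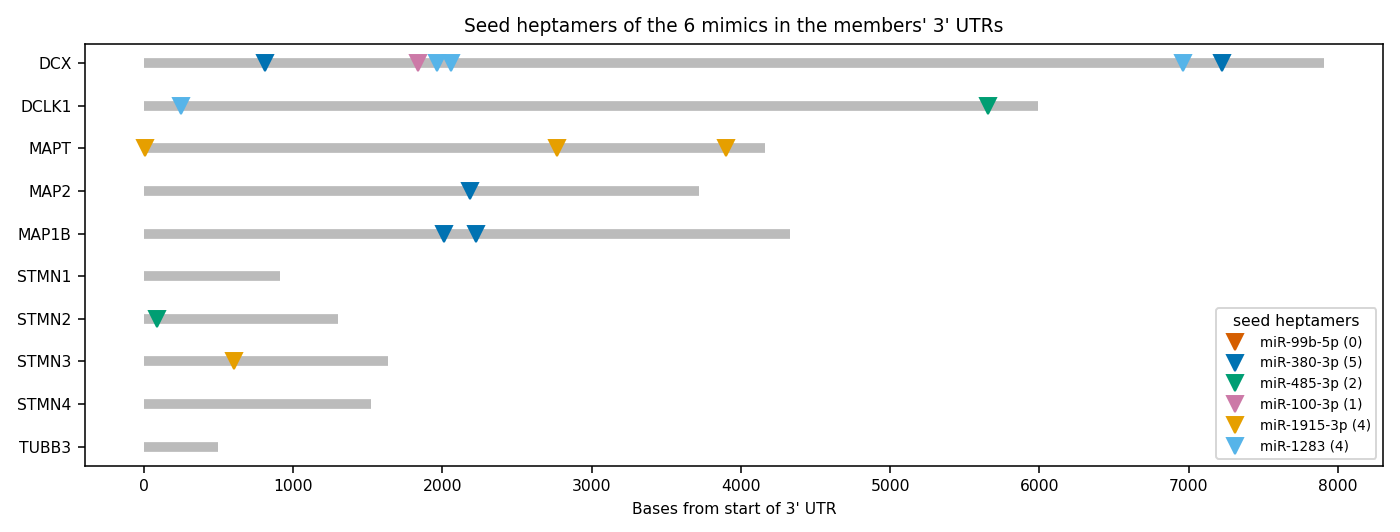
Position of each seed heptamer (triangles, coloured by mimic) along the longest annotated 3′ UTR of each member (grey bars), in bases from the start of the UTR. DCX, with a UTR of 7908 bases, held 6 of the 16 heptamers, and STMN1, STMN4 and TUBB3 held none.

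Of the 10 members, 7 differed between the 7 groups by edgeR's quasi-likelihood F test at an adjusted p under 0.05, a threshold that 48.7% of all tested genes passed. MAP1B (adjusted p = 0.131), STMN3 (0.101) and TUBB3 (0.83) did not. Each mimic was then compared with the control, and a member is called higher or lower where its adjusted p over all tested genes was under 0.05. Under miR-99b-5p, 5 of 10 members were called, 4 higher and 1 lower, where 16.6% of all genes were called (8.11% higher and 8.48% lower). Under miR-380-3p, 5 members were called, all higher, where 10.9% of all genes were called and 5.6% were called higher. Under miR-485-3p, 2 were called, 1 higher and 1 lower, where 21.1% of all genes were called (10.5% higher and 10.6% lower).

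EdgeR called no member under miR-100-3p, where 5.96% of all genes were called, none under miR-1915-3p (0.246%) and none under miR-1283 (0.0199%), and neither did DESeq2 or limma-voom. At an unadjusted p under 0.05 there was 1 member under each of them: MAPT under miR-100-3p, STMN1 under miR-1915-3p and STMN1 under miR-1283. The genes under that threshold were 2799 of 15058 tested under miR-100-3p, 956 under miR-1915-3p and 453 under miR-1283. The 4 mimic libraries did not overlap the 4 control libraries for 7 members under miR-99b-5p (23.9% of all genes), 6 under miR-380-3p (17.4%) and 3 under miR-485-3p (20.1%). They did not overlap for 1 member under miR-100-3p (12.3% of all genes), 1 under miR-1915-3p (6.63%) and 2 under miR-1283 (3.07%). All 6 contrasts share the same 4 control libraries. The members' median log2 change was 0.26 under miR-99b-5p and 0.17 under miR-380-3p, beside medians of -0.0026 and -0.0028 over all tested genes. It was -0.054 under miR-485-3p, beside 0.025 over all genes.

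**Figure D2:**
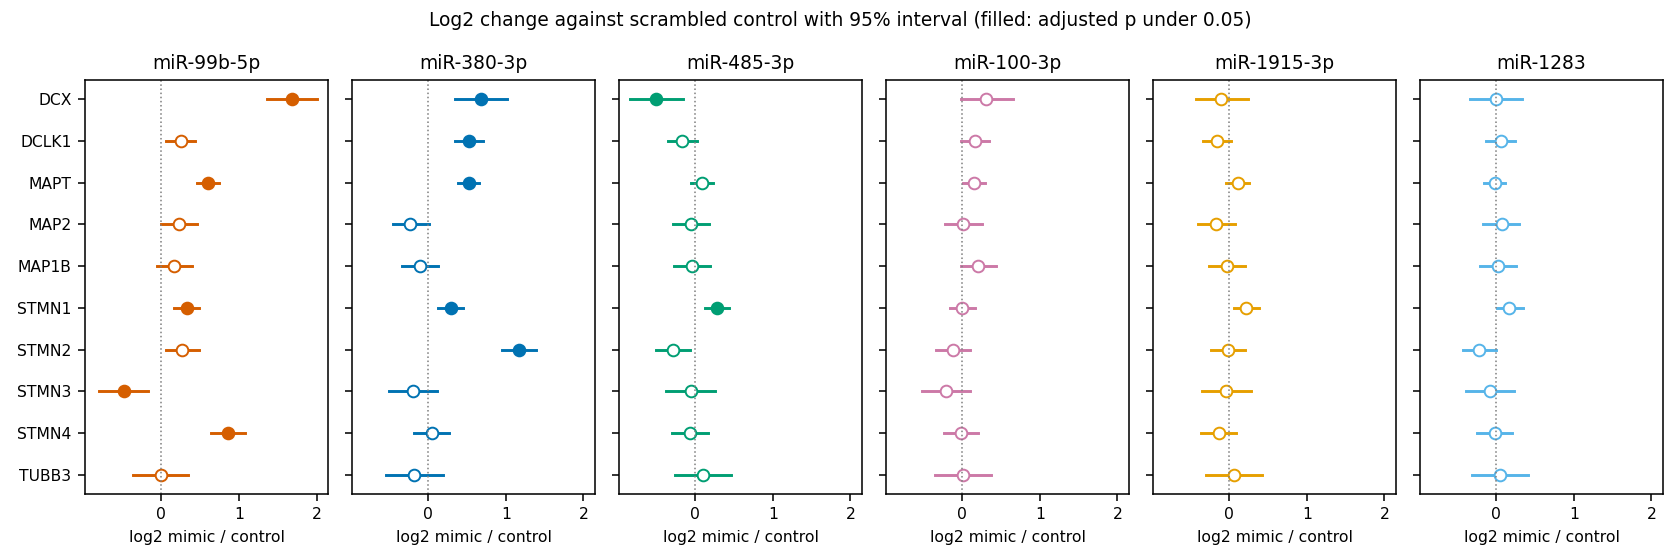
Log2 change of each member (rows) under each mimic (panels) against the scrambled control, with 95% intervals; filled points have an adjusted p under 0.05. The largest changes were those of DCX under miR-99b-5p (1.68) and STMN2 under miR-380-3p (1.17).

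In control cells the members spanned a wide range of levels per length. In CPM per kb of transcript, STMN1 stood at 789.5 ± 56.3 (SD, n = 4) and TUBB3 at 238 ± 21.6. STMN2 followed at 121 ± 5.3, STMN3 at 88.5 ± 7.43, MAP2 at 67.2 ± 4.97 and MAP1B at 47.4 ± 5.58. MAPT stood at 15.5 ± 0.648, STMN4 at 11.8 ± 1.07, DCLK1 at 6.74 ± 0.528 and DCX at 2.38 ± 0.0206.

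DCX (ENSG00000077279, chrX:111293779-111412429, minus strand, GRCh38) encodes doublecortin, which binds between microtubule protofilaments in migrating neurons and growing neurites. It had 44.7, 63.2, 63.8 and 81.6 CPM in miR-99b-5p libraries. In miR-380-3p libraries it had 33.0, 26.2, 35.7 and 31.6 CPM, and in miR-485-3p libraries 12.4, 10.9, 14.2 and 18.2 CPM. The 4 control libraries were nearly alike, at 19.8, 19.6, 19.9 and 19.5 CPM. Their coefficient of variation was 0.865% at 258 to 297 counts, against 8.61% or more in every mimic group. Whether libraries overlap the control is thus read against a narrow range for DCX. All miR-99b-5p and miR-380-3p libraries lay above all control libraries, and all miR-485-3p libraries lay below them.

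DCX rose 3.21-fold under miR-99b-5p (log2 change 1.68 ± 0.16 SE, adjusted p = 1.15e-08) and 1.6-fold under miR-380-3p (0.68 ± 0.16, adjusted p = 0.00458). It fell to 0.71 of the control under miR-485-3p (-0.50 ± 0.16, adjusted p = 0.0295), a call that was lost in 7 of the 8 fits that leave out 1 library (adjusted p from 0.0502 to 0.0927) and was made again only without miR-485-3p replicate 5. Within miR-99b-5p the highest library was replicate 7 and the lowest was replicate 2, the library with the GC slope of -2.31. Of the 7 groups, the lowest-slope library held the lowest DCX value in 1, and the highest-slope library held it in 4. The part of the slope was not tested.

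Mimics were also compared with each other. Over the 15 pairs of mimics and 10 members, 48 of 150 tests were called, where 18.4% of such tests over all genes were called, and adjusting over all pairs together gave 48 again (18.1% over all genes). DCX accounted for 10 of them. It was higher under miR-99b-5p than under each of the other 5 mimics, by log2 1.00 (95% interval 0.69 to 1.32) over miR-380-3p, and by 2.18 (1.85 to 2.52) over miR-485-3p. From high to low the group means ran 63.3 ± 15.1 CPM under miR-99b-5p, 31.6 ± 4.02 under miR-380-3p, 24.6 ± 4.28 under miR-100-3p, 19.8 ± 1.7 under miR-1283, 18.5 ± 2.99 under miR-1915-3p and 13.9 ± 3.17 under miR-485-3p, with 19.7 ± 0.171 in the control. Of neighbours in that order, only miR-99b-5p and miR-380-3p differed, while miR-380-3p over miR-100-3p (log2 0.37, interval 0.04 to 0.69) and miR-485-3p over miR-1915-3p (-0.40, interval -0.74 to -0.06) missed the threshold, with adjusted p of 0.112 and 0.0757.

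DCLK1 (ENSG00000133083, chr13:35768652-36131306, minus strand) encodes a kinase with the same microtubule-binding doublecortin domains. It had 49.7, 46.3, 49.97 and 47.8 CPM in miR-380-3p libraries and 40.8, 38.8, 41.9 and 38.7 CPM in miR-99b-5p libraries, against 37.4, 33.9, 31.4 and 32.3 CPM in control libraries. Both sets of mimic libraries lay above every control library. Only the miR-380-3p change was called, at 1.44-fold (log2 0.52 ± 0.09, adjusted p = 0.000187). Under miR-99b-5p it was 0.25 ± 0.09 (adjusted p = 0.0565), which passed with the replicate number as a block (0.031), with only the 8 libraries compared (0.0407) and without control replicate 1 (0.0346).

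The order of DCX and DCLK1 between these mimics was opposite. DCLK1 was lower under miR-99b-5p than under miR-380-3p (log2 -0.28 ± 0.09, interval -0.46 to -0.09, adjusted p = 0.0213), where DCX was higher. Per length, DCX stood at 0.961 ± 0.252 of DCLK1 under miR-99b-5p, with single libraries from 0.662 to 1.28. The ratio was 0.394 ± 0.0377 under miR-380-3p and 0.280 ± 0.0553 under miR-485-3p, against 0.355 ± 0.0266 in the control. These ratios were chosen after the levels were seen and are given as description.

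MAPT (ENSG00000186868, chr17:45894382-46028334, plus strand) encodes tau, which binds along axonal microtubules. It had 47.9, 57.3, 53.0 and 59.0 CPM in miR-99b-5p libraries and 50.02, 55.8, 51.7 and 47.8 CPM in miR-380-3p libraries, against 34.9, 37.1, 34.1 and 37.0 CPM in control libraries. Every library of both mimics lay above every control library, and above every library of the other 4 mimics. The rise was 1.52-fold under miR-99b-5p (log2 0.60 ± 0.07, adjusted p = 3.67e-07) and 1.43-fold under miR-380-3p (0.52 ± 0.07, adjusted p = 7.33e-06). The difference between these mimics was 0.08, with an interval from -0.06 to 0.22 (adjusted p = 0.42). Both were higher than each of the other 4 mimics, by log2 0.37 to 0.62, which are all 8 of the called pairs of MAPT.

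MAPT carried 3 miR-1915-3p heptamers in its longest annotated UTR, the first of them 7 bases into it. The others, at bases 2764 and 3903, lie farther in than the deposited transcript length of 2303 bases. MAPT stood at 38.5 ± 1.9 CPM under miR-1915-3p and 35.8 ± 1.49 CPM in the control (log2 0.11 ± 0.07, adjusted p = 0.913). Under miR-100-3p its 4 libraries, from 37.3 to 41.2 CPM, lay above the 4 control libraries, at log2 0.15 ± 0.07 (adjusted p = 0.223). STH, a gene inside MAPT on the same strand, had at most 2 counts in any library.

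MAP2 (ENSG00000078018, chr2:209424058-209734118, plus strand), the dendritic member of the tau family, was not called against the control under any mimic. It had 268.5, 248.9, 271.4 and 279.6 CPM in miR-380-3p libraries, against 313.0, 320.8, 281.4 and 336.5 CPM in control libraries. The miR-380-3p libraries all lay below the control libraries, at the nearest 279.6 against 281.4 CPM, and the log2 change of -0.23 ± 0.11 had an interval of -0.46 to 0.01 (adjusted p = 0.215; 0.0217 at a change of -0.28 with the GC slope as a covariate). Under miR-99b-5p MAP2 had 350.3, 353.2, 313.5 and 447.5 CPM, which overlapped the control (log2 0.23 ± 0.11, adjusted p = 0.183). The mimics differed from each other: MAP2 was higher under miR-99b-5p than under miR-380-3p (0.45 ± 0.11, adjusted p = 0.00359) and than under miR-1915-3p (0.40 ± 0.11, adjusted p = 0.014).

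MAP1B (ENSG00000131711, chr5:72107234-72209570, plus strand) encodes the microtubule-associated protein of early growing axons, and its heavy and light chains are cut from 1 precursor. Its group means lay between 526.5 ± 47.7 CPM under miR-380-3p and 656.9 ± 86.7 CPM under miR-100-3p, with 568.3 ± 66.9 CPM in the control. Each mimic's libraries overlapped the control's. The single called pair was miR-380-3p against miR-100-3p (log2 -0.32 ± 0.11, adjusted p = 0.0482), and there too the libraries overlapped. MAP1B and MAP2 hold miR-380-3p heptamers, and MAP1B changed by -0.11 under miR-380-3p with an interval from -0.34 to 0.12 (adjusted p = 0.6).

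**Figure D3:**
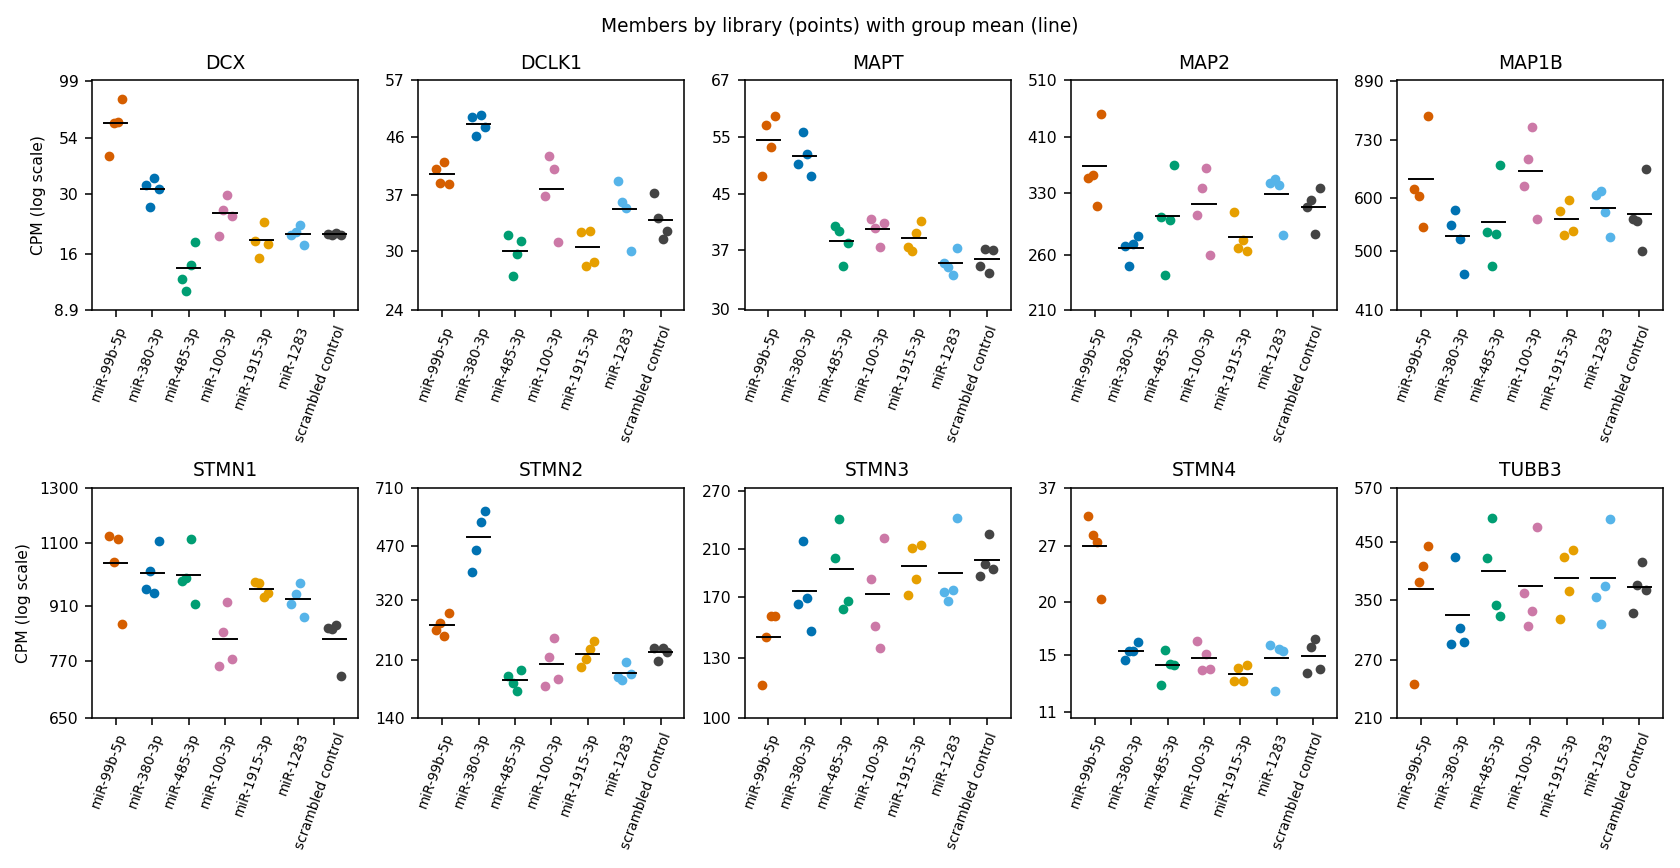
CPM of each member in each of the 28 libraries (points, on a log2-spaced axis that differs between panels) with the group mean (line). DCX and STMN4 stood highest in the miR-99b-5p libraries, STMN2 and DCLK1 in the miR-380-3p libraries, and TUBB3 overlapped between all groups.

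STMN1 (ENSG00000117632, chr1:25884181-25906991, minus strand), the cytosolic stathmin of proliferating and neural cells, was the most abundant member per length. It had 1125, 1039, 1114 and 861 CPM in miR-99b-5p libraries, 957, 1010.0, 945 and 1108 CPM in miR-380-3p libraries and 980.2, 991, 1113 and 915 CPM in miR-485-3p libraries. The control libraries had 852, 849, 858 and 736 CPM, of which replicate 5 stood apart as the lowest. All libraries of these 3 mimics lay above the 4 control libraries, the nearest being miR-99b-5p replicate 7 at 861 against control replicate 4 at 858 CPM.

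STMN1 and DCX were the members called under 3 mimics, and STMN1 was higher under each. The log2 change was 0.33 ± 0.08 under miR-99b-5p (adjusted p = 0.00422), 0.29 ± 0.08 under miR-380-3p (0.0172) and 0.28 ± 0.08 under miR-485-3p (0.0119). Without control replicate 5 the calls under miR-380-3p and miR-485-3p were lost, at adjusted p of 0.0821 and 0.0565, and they were also lost without miR-380-3p replicate 4 (0.084) and without miR-485-3p replicate 3 (0.116). The call under miR-485-3p was also lost when only its own and the control libraries were fitted (0.0548). The call under miR-99b-5p held in every fit that left out 1 library. Under miR-1915-3p and miR-1283 the STMN1 libraries lay above the control libraries too, at 0.22 ± 0.08 and 0.17 ± 0.08, and neither passed (adjusted p = 0.437 and 1.0). STMN1 levels under miR-99b-5p, miR-380-3p and miR-485-3p differed from those under miR-100-3p, at 824 ± 73.6 CPM, by log2 0.28 to 0.33, its only called pairs. The summed CPM of the proliferation genes MKI67 and TOP2A ran from 1166 to 1447 in miR-99b-5p libraries, 1238 to 1363 in miR-380-3p libraries and 1125 to 1532 in miR-485-3p libraries, and from 1062 to 1413 over the libraries of the other 3 mimics, against 1119 to 1273 in control libraries; its part in the STMN1 change was not tested.

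STMN2 (ENSG00000104435, chr8:79610814-79666175, plus strand), also known as SCG10, is a palmitoylated stathmin of growing axons. It had 392, 457, 555 and 601.5 CPM in miR-380-3p libraries, against 229, 208, 229 and 222 CPM in control libraries. Every miR-380-3p library lay above every other library of the series. The rise was 2.26-fold (log2 1.17 ± 0.11, adjusted p = 1.95e-08). STMN2 was also higher under miR-380-3p than under each of the other 5 mimics, by log2 0.90 over miR-99b-5p and 1.19 to 1.46 over the remaining 4, with no overlap of libraries.

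Under the other mimics the STMN2 changes were smaller and none was called. It had 260, 273, 249 and 294 CPM in miR-99b-5p libraries, all above the control (log2 0.27 ± 0.10, adjusted p = 0.0755; 0.00873 with only the 8 libraries compared). In miR-485-3p libraries it had 187, 179, 169 and 195 CPM, all below the control (-0.28 ± 0.11, adjusted p = 0.0547), and this change passed in 10 of 21 other fits. The miR-1283 libraries, from 182 to 207 CPM, also lay below every control library (-0.22 ± 0.11, adjusted p = 1.0). Between mimics, STMN2 was higher under miR-99b-5p, at 269 ± 19.3 CPM, than under miR-485-3p, at 182 ± 11.4 CPM (log2 0.56 ± 0.11, adjusted p = 0.000155).

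STMN4 (ENSG00000015592, chr8:27235323-27258420, minus strand), a stathmin of the nervous system, had 31.7, 28.6, 27.6 and 20.3 CPM in miR-99b-5p libraries, against 13.6, 15.7, 16.4 and 13.9 CPM in control libraries. The 4 miR-99b-5p libraries were the 4 highest of all 28, and replicate 7 was the lowest of them. The rise was 1.82-fold (log2 0.86 ± 0.11, adjusted p = 1.37e-06). STMN4 was higher under miR-99b-5p than under each other mimic, by log2 0.82 to 1.00, and none of the 10 pairs among the other mimics was called. Its mean under those 5 mimics lay between 13.5 and 15.3 CPM, with 14.9 ± 1.34 CPM in the control. Replicate 7 was the lowest of the miR-99b-5p libraries for STMN4, STMN1 and DCLK1 and the highest of them for DCX, MAPT, MAP2, MAP1B, STMN2 and TUBB3.

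STMN3 (ENSG00000197457, chr20:63639705-63657682, minus strand), a neuronal stathmin also called SCLIP, was the only member called lower under miR-99b-5p. It had 116, 142, 156 and 156 CPM in miR-99b-5p libraries, against 186, 196, 224 and 192 CPM in control libraries. The F test across the 7 groups was not passed (adjusted p = 0.101). The libraries of the mimic and the control did not overlap, and the level fell to 0.71 of the control (log2 -0.48 ± 0.15, adjusted p = 0.0262). The call was lost without miR-99b-5p replicate 2 (-0.40, adjusted p = 0.0995), without miR-99b-5p replicate 3 (0.0591) and without control replicate 4 (0.0892). STMN3 was also lower under miR-99b-5p than under miR-485-3p (-0.43 ± 0.15, adjusted p = 0.0285) and miR-1915-3p (-0.45 ± 0.15, adjusted p = 0.0362).

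STMN3 and TUBB3 are the members with the highest transcript GC content, at 63.1% and 61.9%, and their levels moved with the GC slope within groups. In 5 of 7 groups for STMN3 and 6 of 7 for TUBB3, the library with the highest slope held the group's highest value, and in 6 and 5 of 7 groups the library with the lowest slope held its lowest value. DCLK1, with the lowest GC content (42.9%), had its lowest value in the highest-slope library in 7 of 7 groups. The mean slope was -0.76 in miR-99b-5p libraries and 0.52 in control libraries. With the slope as a covariate, STMN3 under miR-99b-5p changed by -0.28 (adjusted p = 3.97e-05) and TUBB3 by 0.20 (0.0429). Leaving out the 3 libraries with slopes beyond 2, all 12 calls of members against the control were made again, DCX and STMN3 under miR-99b-5p at 1.81 and -0.40.

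**Figure D4:**
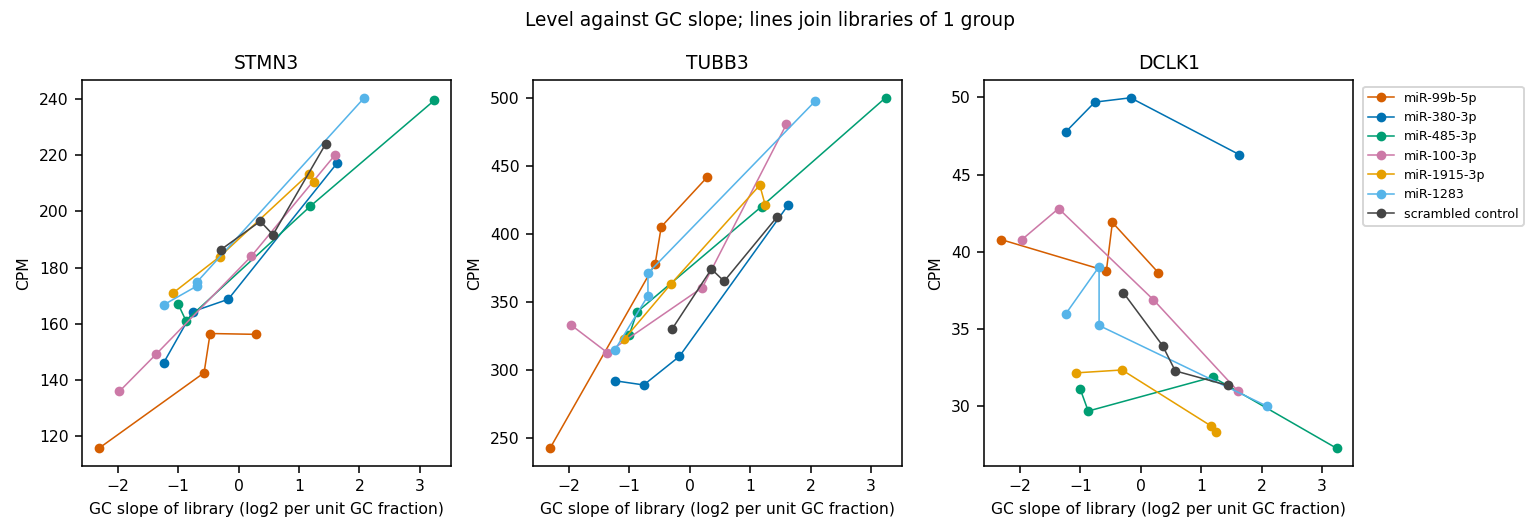
CPM of STMN3, TUBB3 and DCLK1 in each library against the library's GC slope (log2 deviation per unit of GC fraction); lines join the 4 libraries of a group. Within most groups the STMN3 and TUBB3 libraries with higher slopes held higher values, and the miR-99b-5p library with a slope of -2.31 held their lowest values, 116 and 243 CPM.

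TUBB3 (ENSG00000258947, chr16:89921392-89938761, plus strand), the beta tubulin used as a marker of neurons, was called under no mimic and in none of the 15 pairs. It had 243, 378, 406 and 442 CPM in miR-99b-5p libraries, against 330.4, 374, 412 and 366 CPM in control libraries, so the miR-99b-5p libraries reached past the control on both sides. Its log2 change under the 6 mimics lay between -0.18 and 0.10. The lowest was under miR-380-3p (interval -0.54 to 0.19) and the highest under miR-485-3p (interval -0.26 to 0.46). TUBB3 made up 12.3 ± 2.48% of the summed CPM per kb of 6 beta tubulin genes under miR-99b-5p and 13.2 ± 0.787% in the control. The TUBB3 row dropped by the rule, a read-through-like entry that overlaps the gene, had at most 67.5 counts and was at 0 in 16 libraries. The antisense gene at this locus had at most 6 counts, and the neighbour MC1R had 171 to 707.

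Summed per length, the make-up of the 4 stathmin mRNAs differed between groups. STMN2 made up 20.5 ± 2.77% of the 4 under miR-380-3p, 12.1 ± 2.01% under miR-99b-5p and 8.67 ± 1.07% under miR-485-3p, against 12.02 ± 0.863% in the control. STMN4 made up 1.75 ± 0.191% under miR-99b-5p, against 1.17 ± 0.0840% in the control. STMN1 remained the main stathmin in every group, at 72.7 ± 2.28% under miR-380-3p and 78.1 ± 1.28% in the control. STMN2 shares of single miR-380-3p libraries, from 17.6% to 23.4%, lay above the control libraries, from 11.1% to 13.2%. The shares were chosen after the levels were seen and carry no test.

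**Figure D5:**
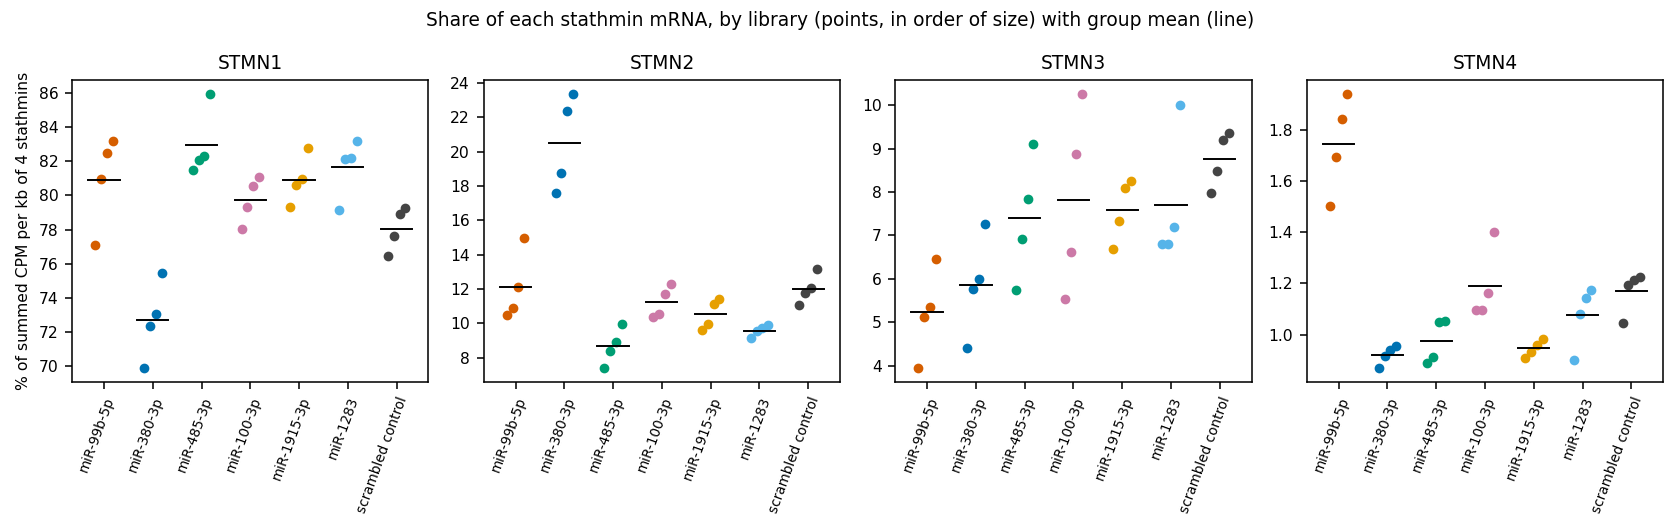
Share of each stathmin in the summed CPM per kb of the 4 stathmins, in percent, for each library (points) with the group mean (line); axes differ between panels. The miR-380-3p libraries had the highest STMN2 and lowest STMN1 shares, and the miR-99b-5p libraries the highest STMN4 shares.

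The changes were then set beside the seed heptamers. Of the 10 combinations of a member and a mimic whose heptamer its UTR carried, none was called lower by edgeR and 1 was called higher, DCX under miR-380-3p with its pair of sites; at an unadjusted p under 0.05 there was 1 lower, STMN2 under miR-485-3p. Its miR-485-3p heptamer lies 85 bases into the UTR, and DCLK1, whose site is printed earlier, changed by -0.17 ± 0.09 under the same mimic (adjusted p = 0.198). The DCLK1 site lies 5654 bases into its longest UTR, farther than the deposited transcript length of 5007 bases. Over all tested genes with a UTR, 14.6% of those with the miR-380-3p heptamer were called lower under miR-380-3p, against 4.13% of those without it. For miR-485-3p the shares were 28% and 8.21%, and for miR-99b-5p 40.5% and 8.87%. They were 9.44% and 2.75% for miR-100-3p, 0.484% and 0.218% for miR-1915-3p, and 0.0384% and 0.0201% for miR-1283. Lower calls were thus rare under miR-1915-3p and miR-1283, so the absence of one among the members that carry their heptamers says little. The 4 members that rose under miR-99b-5p, and STMN3, which fell, have no miR-99b-5p heptamer.

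The further microtubule genes were followed in 7 lists of 116 genes, of which 110 were tested. Under miR-99b-5p 11 were called higher and 13 lower (21.8%), under miR-380-3p 12 and 8 (18.2%), under miR-485-3p 17 and 13 (27.3%) and under miR-100-3p 7 and 3 (9.1%). Over all tested genes the shares called were 16.6%, 10.9%, 21.1% and 5.96% under the same 4 mimics. By direction, 8.11% of all tested genes were called higher and 8.48% lower under miR-99b-5p, 5.6% and 5.25% under miR-380-3p, and 10.5% and 10.6% under miR-485-3p. The counts of single lists that follow stand beside these shares, and with 5 to 24 genes tested in a list none is read as particular to it. Under miR-1915-3p and miR-1283 edgeR called none of the 110, with 7 and 3 at an unadjusted p under 0.05 (956 and 453 of all 15058), and DESeq2 called 1 under miR-1915-3p. Of the 14 tubulins tested, 1 was called higher and 2 lower under miR-99b-5p, and 1 higher under miR-380-3p. The miR-485-3p contrast called 2 higher and 1 lower, and the miR-100-3p contrast called 1 lower. TUBA1A, the main alpha tubulin of young neurons, rose under both, to 1085 ± 69.9 CPM under miR-99b-5p and 1056 ± 66.9 CPM under miR-380-3p, against 887 ± 15 CPM in the control (log2 0.29 and 0.25, adjusted p = 0.000856 and 0.00501). TUBB6 fell under miR-485-3p (-0.70 ± 0.11, adjusted p = 2.11e-05) and under miR-100-3p (-0.40, adjusted p = 0.0181, lost in 3 of 21 other fits). TUBA1C was called lower under miR-99b-5p (-0.26 ± 0.08, adjusted p = 0.0194) and lost the call in 4 of 21 other fits. These were the fits without miR-99b-5p replicate 2 (0.0584) or 3 (0.0564), without control replicate 4 (0.0988) and with no filter (0.062). TUBA4A, at 0.461 ± 0.289 CPM under miR-99b-5p and 1.06 ± 0.372 CPM in the control, was called lower (-1.17, adjusted p = 0.0311). The call of TUBA4A was lost in 6 of 20 other fits, among them 4 of the 8 that leave out 1 library. It was called higher under miR-485-3p (0.90, adjusted p = 0.0448, lost in 12 of 20 other fits).

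Of 17 other microtubule-associated proteins, 3 were called higher under miR-99b-5p, 2 higher and 1 lower under miR-380-3p, and 3 higher and 2 lower under miR-485-3p. The miR-100-3p contrast called 2 higher and 1 lower. MAP7, which recruits kinesin, had 11.4 ± 1.13 CPM under miR-99b-5p and 5.12 ± 0.523 CPM in the control (log2 1.16 ± 0.15, adjusted p = 1.98e-06). It was also called higher under miR-380-3p (0.51, adjusted p = 0.0255, lost in 7 of 21 other fits) and lower under miR-100-3p (-0.60, adjusted p = 0.0217, lost in 4). DCLK3, a kinase related to DCLK1, fell under miR-485-3p (-1.09 ± 0.17, adjusted p = 2.65e-05), as did CAMSAP1, which binds minus ends (-0.40 ± 0.07, adjusted p = 5.65e-05). MAP1A, the relative of MAP1B found in mature neurons, rose under miR-100-3p (0.55 ± 0.09, adjusted p = 0.000195). Of the 5 collapsin response mediators, which bind tubulin dimers in axons, 2 were called higher under miR-380-3p: DPYSL5 (0.51 ± 0.08, adjusted p = 4.79e-05) and DPYSL3 (0.18, adjusted p = 0.0462, lost in 13 of 21 other fits). DPYSL2 was called higher under miR-485-3p (0.22, adjusted p = 0.017, lost in 6 of 21 other fits), and CRMP1 changed by 0.17 under miR-380-3p without a call (adjusted p = 0.0784).

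Of 15 plus-end and spectraplakin genes, 1 was called higher under miR-99b-5p, and 3 were called higher and 2 lower under miR-380-3p. The miR-485-3p contrast called 2 higher and 1 lower, and the miR-100-3p contrast called 1 lower. NAV1, a neuron navigator, rose under miR-99b-5p (0.57 ± 0.09, adjusted p = 4.66e-05). It was called higher under miR-380-3p too (0.31, adjusted p = 0.0242, lost in 7 of 21 other fits), and lower under miR-100-3p (-0.37, adjusted p = 0.0147, lost in 3). SLAIN2 fell under miR-380-3p (-0.37, adjusted p = 0.00366), and CKAP5, a microtubule polymerase, fell under miR-485-3p (-0.36, adjusted p = 0.00176). MAPRE2, an end-binding protein, rose under miR-485-3p (0.27, adjusted p = 0.00488) and under miR-380-3p (0.24, adjusted p = 0.0199, lost in 5 of 21 other fits). Of 24 tubulin chaperones, severing and modifying enzymes, 1 was called higher and 5 lower under miR-99b-5p, and 2 higher and 4 lower under miR-485-3p. The miR-380-3p contrast called 1 higher and 2 lower, and the miR-100-3p contrast called 1 higher. TTL, the ligase that returns tyrosine to the end of alpha tubulin, had 16.0 ± 1.52 CPM under miR-99b-5p and 33.7 ± 1.54 CPM in the control (log2 -1.07 ± 0.09, adjusted p = 1.22e-09). VASH2, which removes that tyrosine, rose under miR-485-3p (0.70 ± 0.10, adjusted p = 1.93e-05), where TTL fell (-0.47 ± 0.09, adjusted p = 0.000228). TTL rose under miR-100-3p (0.35 ± 0.08, adjusted p = 0.012), and VASH2 was called higher under miR-380-3p (0.33, adjusted p = 0.0443, lost in 10 of 21 other fits). TBCA, a tubulin chaperone, fell under miR-485-3p (-0.50), and KATNAL1, a relative of the severing protein katanin, rose under miR-99b-5p (0.55).

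Of 14 kinases that act on microtubule-binding proteins, 4 were called higher and 2 lower under miR-485-3p, and 1 higher and 3 lower under miR-99b-5p. The miR-380-3p contrast called 1 higher, and the miR-100-3p contrast called 2 higher. PAK1, which can phosphorylate stathmin, rose under miR-380-3p (0.39 ± 0.06, adjusted p = 9.22e-05) and miR-485-3p (0.38 ± 0.06, adjusted p = 6.63e-05), and was called higher under miR-100-3p (0.22, adjusted p = 0.0334, lost in 9 of 21 other fits). MAPK8, a JNK kinase that phosphorylates doublecortin and STMN2, rose under miR-99b-5p (0.45 ± 0.10, adjusted p = 0.0022) and was called lower under miR-485-3p (-0.28, adjusted p = 0.0445, lost in 12 of 21 other fits). MARK1, a tau kinase, fell under miR-485-3p (-0.42, adjusted p = 0.00162). CDK5R1, the activator of the tau kinase CDK5, rose under miR-100-3p (0.41, adjusted p = 0.00108) and miR-485-3p (0.30, adjusted p = 0.00573, lost in 2 of 21 other fits).

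Of 21 axonal motor genes, 4 were called higher and 3 lower under miR-99b-5p, 2 higher and 3 lower under miR-380-3p, and 3 higher and 3 lower under miR-485-3p. The miR-100-3p contrast called 2 higher. KIF1A, a carrier of synaptic vesicle precursors, fell to 336 ± 59.1 CPM under miR-99b-5p, against 564 ± 35.8 CPM in the control (log2 -0.75 ± 0.10, adjusted p = 4.01e-06), and was called lower under miR-380-3p (-0.34, adjusted p = 0.0242, lost in 4 of 21 other fits). KIF5A rose under miR-99b-5p (0.53 ± 0.08, adjusted p = 1.31e-05). KIF5C fell under miR-485-3p (-0.81 ± 0.10, adjusted p = 1.52e-06) and rose under miR-99b-5p (0.40 ± 0.10, adjusted p = 0.00607). PAFAH1B1, the dynein regulator LIS1, fell to 124 ± 14.9 CPM under miR-380-3p, against 211 ± 12.8 CPM in the control (-0.77 ± 0.09, adjusted p = 1.83e-06).

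The genes with a pattern across the 7 groups closest to that of a member were looked up among 11479 genes, by the root mean square difference of centred group means in log2 CPM. For DCX, whose own spread was 0.651, they were FREM1 at 0.145, SCG2 at 0.194 and KITLG at 0.225. For STMN2, with a spread of 0.458, they were COL11A1 at 0.128, ZNF117 at 0.136 and FGFBP3 at 0.175. For STMN4, with a spread of 0.310, they were TANC2 at 0.074, PTPRO at 0.085 and DUSP8 at 0.086. No member was among the 3 nearest genes of any other. With only 3 of 11479 genes looked up per member, this says little about likeness between members.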

How the data were processed

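Stranded poly(A) RNA libraries of Kelly cells were sequenced by the authors and aligned with STAR to hg19, per the submitters' processing notes; the STAR version, counting tool, annotation and filter are not given in the sources used here. The values are the authors' expected counts for each gene, as deposited (10.2% of values are not whole), and a transcript length per gene. No column lacked a sample. Totals ran from 10.99 M to 23.3 M per library, with a median of 15 M. Libraries of a group differed by more than sampling noise in all 42 pairs within groups (chi-square per gene at least 2.89), so none was counted as a copy.

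Expected counts were rounded to whole numbers, filtered with filterByExpr of edgeR 4.0.16, scaled by TMM and tested by its quasi-likelihood test with Benjamini-Hochberg adjustment over all 15058 tested genes. All 28 libraries entered 1 fit (21 residual degrees of freedom, biological coefficient of variation 12.2%). Tests were two-sided, and log2 changes are given with SE and 95% intervals. CPM are counts per M of effective library size, and CPM per kb use the deposited length. For the cell type and proliferation markers, CPM are counts per M of total counts, without the TMM factors (0.948 to 1.033). The GC slope is the slope of a library's log2 CPM deviations on transcript GC content over 14863 genes. Alternatives were DESeq2 1.42.0, limma-voom (limma 3.58.1), other scalings and filters, a replicate block, library code and GC slope covariates, only the compared groups, and fits without 1 or several libraries. One alternative, leaving out the 3 libraries of extreme GC slope, was chosen after seeing the data. The procedure was tested on simulated data.

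The members, gene lists, named genes and tests were chosen with earlier results of these data known. Of each further list, the 4 genes with the smallest adjusted p over the 6 contrasts are named. Seed sites were sought with RefSeq miRNA sequences in GENCODE v29 3′ UTRs of at least 50 bases; no protein sequences were used here.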

Additional observations from a re-analysis of the deposited data

Results flagged for a closer look

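In 5 of 70 groups of 4 libraries (10 members in 7 groups), 1 library stood far from the other 3 by Dixon's test at its 95% critical value. Chance alone flags about 1 in 20 groups. In miR-1283 replicate 4, MAP2 was the lowest at 280.4 CPM, against 340.3 to 349.0 in the other 3, and STMN3 was the highest at 240.5 CPM, against 166.7 to 174.8. This is 1 of the 3 libraries with a GC slope beyond 2, at 2.08. In miR-1283 replicate 2, STMN4 was the lowest at 12.33 CPM, against 15.34 to 15.85. TUBB3 was the highest in miR-380-3p replicate 2 at 421.6 CPM, against 289.2 to 310.2, and that library had the highest GC slope of its group, at 1.63. STMN1 was the lowest in scrambled control replicate 5 at 735.8 CPM, against 848.7 to 858.1, and this library bears on the STMN1 calls. No explanation of these values was tested.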

How the results depend on the processing

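Of 12 calls of members against the control, 8 were made in every alternative; the exceptions were DCX under miR-485-3p, STMN1 under miR-380-3p and under miR-485-3p, and STMN3 under miR-99b-5p, whose values stand in the report. Of 48 contrasts without a call, 41 had none in any alternative. The count of members called under miR-485-3p, 2, ran from 0 to 3 over fits without 1 library. Under miR-100-3p, 0 members became 1 with the replicate block (MAP1B, adjusted p = 0.0117) and 1 with the GC slope covariate (MAPT, adjusted p = 0.028). TUBB3 under miR-99b-5p changed by 0.20 with the GC slope covariate (adjusted p = 0.0429), against -0.01 without it. Under miR-99b-5p 5 calls ran from 4 to 6 without 1 library, and under miR-380-3p 5 ran from 4 to 5. The causes of these changes were not tested.

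The main fit did not pair libraries by replicate number, and whether a shared number marks shared handling is not known here. The correlation of deviations ran from -0.338 to 0.546 over 67 same-number pairs, with a median of 0.053, and was over 0.1 in 27. Over 269 other pairs it ran from -0.463 to 0.55, with a median of -0.009. With the replicate block, 6, 5 and 3 members were called under miR-99b-5p, miR-380-3p and miR-485-3p. The block gave 60 member calls over the direct pairs of mimics, against 48 in the main fit. Named further genes kept 28 of 44 calls in every alternative. The GC slope covariate raised the count of further genes called, to 39 from 24 under miR-99b-5p and to 52 from 30 under miR-485-3p.

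DCX and STMN4 had 119 and 162 counts in their lowest library, so counting error adds to the spread between libraries. The F test across all groups has no fit with only the compared groups.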
